A study of Rattus norvegicus with 9 samples.

Results

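Iron enters most cells as transferrin bound to its receptor, is stored in ferritin and leaves through a single exporter, and the genes of these steps were followed in an aging laryngeal muscle. The genes were *Tfrc*, *Tf*, *Fth1*, *Ftl1*, *Slc40a1*, *Slc11a2*, *Hmox1*, *Hmox2*, *Cp* and *Aco1*, and a probe set was taken when its annotation gave 1 of these symbols and no other. That rule found 14 probe sets of 7 genes, among 8740 probe sets and 4736 genes with such probe sets on the array. The other 3 genes of the rule, the transferrin gene *Tf* and the ferritin genes *Fth1* and *Ftl1*, lie only on probe sets annotated to several genes, so iron storage and the carrier protein enter none of the comparisons.

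RNA came from the posterior cricoarytenoid muscle, which pulls the vocal folds apart in breathing, of rats at 6, 18 or 30 months of age. There were 3 arrays for each age, and since every one held the pooled RNA of 4 animals, spreads and p-values describe differences between pools. The groups differ only in age as labelled, with no treatment or genotype, and the labels name neither strain nor sex. The question was which expression levels differ between ages, with 6 months as the baseline.

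Iron that a muscle fibre takes up goes to myoglobin, to the iron-sulphur clusters and haem of the respiratory chain, and into ferritin. Cells balance these steps through iron regulatory proteins, which bind stem-loops in messenger RNAs when iron is scarce: they stabilise the transferrin receptor message and block translation of ferritin. Translation and protein amounts were not measured on these arrays. Haem oxygenases return iron from haem to the cell, and ceruloplasmin oxidises iron as it leaves.

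Signals are linear intensities of a probe set, and their trimmed mean lay between 500.87 and 500.97 on every array. Changes are given as differences in log2(signal + 32), which understates the change of weak probe sets. Median signals ran from 104 to 125 over the 9 arrays. Log2 signals correlated at 0.972 to 0.984 between arrays of an age and at 0.967 to 0.988 between ages, over probe sets, which are not independent replicates. The skeletal muscle markers bore out the label of the tissue: all 14 of 14 measured were above the signal filter, led by *Ckm* and *Acta1*. Their summed signal was 225730 to 260340 at 6 months, 263090 to 312970 at 18 months and 271520 to 292730 at 30 months. The number of arrays limits the precision of every value.

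Of the 14 probe sets, 9 in 6 genes were in the upper 60% by mean signal and entered the limma test, and 5 were weaker and are described separately. At 18 months 0 of the 9 passed an adjusted p of 0.05 against 6 months, where 0.0763% of all 5244 tested probe sets did. At 30 months 0 of 9 passed against 6 months, beside 0.324% of all tested, and 0 of 9 between 30 and 18 months, beside 0.0191%. Without adjustment, p was under 0.05 for 2 of 9 at 18 months (8.62% of all tested), for 2 of 9 at 30 months (12.9%) and for 0 of 9 between 18 and 30 months (3.2%). The same 2 probe sets, one of *Tfrc* and one of *Slc11a2*, made up both counts, and both lay lower at the older age. They were also the 2 of 9 whose signals at 18 months did not overlap those at 6 months, beside 13.7% of all tested probe sets. The same held at 30 months, beside 22.2%. Between 18 and 30 months the signals of 0 of 9 were apart, beside 7.36%. With 9 probe sets, counts of 2 are too few to be read against these shares. The median change of the 9 from 6 months was -0.10 at 18 months and -0.15 at 30 months, where the median of all tested probe sets was -0.04 and -0.05. At 18 months 6 of the 9 lay below 6 months, as did 57.7% of all tested, and at 30 months 8 of 9, beside 58.8%. These signs depended on the scaling: after quantile normalization, and also after median centring, 5 of 9 lay below 6 months at each older age. The median of the 9 at 30 months was then -0.02. Under either scaling the unadjusted p was under 0.05 for 1 of 9 at each older age.

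**Figure D1:**
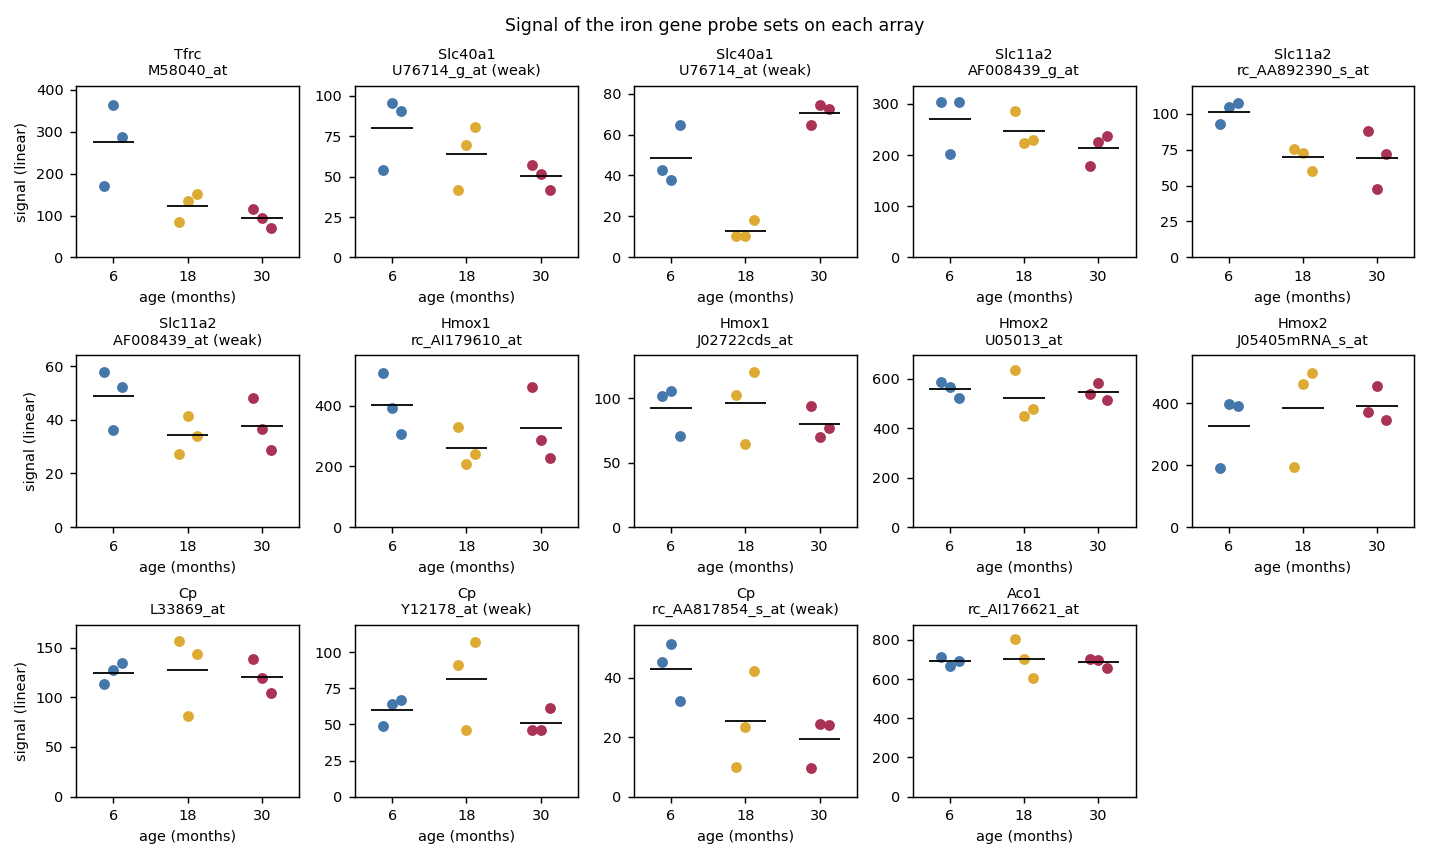
Signals of the 14 iron gene probe sets on a linear scale (vertical axis, from 0 in each panel) against age in months (horizontal axis). Each point is 1 array, a pool of 4 animals, and the bar is the mean of 3 arrays; "weak" marks the 5 probe sets under the signal filter. *Tfrc* is lower at 18 and 30 months without overlap with 6 months, and the *Slc40a1* probe set U76714_at is lowest at 18 months.

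*Tfrc* encodes the transferrin receptor, which carries iron-loaded transferrin into the cell, and it had the largest change from 6 months of the tested iron probe sets. The probe set M58040_at gave 171, 365 and 288 on the 6-month arrays, 84.5, 134 and 152 on the 18-month arrays and 116, 95.1 and 70.5 on the 30-month arrays. Every array of both older ages lay below every array of 6 months, while 18 and 30 months overlapped. Means in order of age were 274 ± 97.7, 123 ± 34.8 and 93.9 ± 22.8 (SD, n = 3).

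The ratio of mean signals was 2.22 between 6 and 18 months and 2.92 between 6 and 30 months. On the log2 scale the change at 18 months was -0.95 (SE 0.26, 95% interval -1.54 to -0.37). It ranked 57 among 5244 by limma's p, and the adjusted p (Benjamini-Hochberg over all tested probe sets) was 0.431. At 30 months the change was -1.25 (SE 0.26, 95% interval -1.83 to -0.66), with rank 32 and an adjusted p of 0.138. From 18 to 30 months it was -0.29 (interval -0.88 to 0.29, adjusted p = 0.999). For any difference among the ages, limma's F-test gave an adjusted p of 0.267. *Tfrc* therefore fell short of the threshold in each of these tests, although its intervals at both older ages lie below 0. The adjusted p at 30 months ran from 0.0897 to 0.374 over 17 alternative settings, and the change from -1.52 to -0.83. A filter on the upper 40% left this probe set out.

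A rule on signals alone, a ratio of means over 1.7 without overlap between ages, was met by *Tfrc* and by no other tested iron probe set. At 18 months 1.43% of all tested probe sets met it, and at 30 months 2.23%. Between 18 and 30 months 0 of 9 met it, beside 0.629%. In bulk tissue, fewer cells of a type and less RNA per cell cannot be told apart. Fibroblast markers were lower at the older ages too: their summed signal over 10 measured genes was 21050 to 25837 at 6 months, 16390 to 17368 at 18 months and 18035 to 19194 at 30 months. Of these 10 genes, 1 fell past the threshold at 18 months and 3 at 30 months, all collagens, and 9 lay below 6 months at each older age. Unadjusted p was under 0.05 for 8 of them at 18 months and 5 at 30 months. The 2 of highest signal, *Dcn* and *Mgp*, changed by -0.32 and -0.12 at 18 months and by -0.09 and 0.08 at 30 months. The 3 collagens changed by -1.25, -1.35 and -1.42 at 30 months. The skeletal muscle markers lay the other way, with 14 of 14 above 6 months at 18 months and 13 of 14 at 30 months, and median changes of 0.21 and 0.27. None of the 14 passed by limma's adjusted p (0 at each age, with 4 and 6 at an unadjusted p under 0.05). The part of either cell type in the *Tfrc* values was not tested.

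*Tfrc* transcription is known to respond to hypoxia through a short element close to the start of the gene, so the upstream sequence is shown for reading beside the hypoxia genes below. It is the 250 bases before the RefSeq start on assembly GRCr8, chr11:81690319-81690568, minus strand, written 5′ to 3′. Capitals mark ACGTG, the core of a hypoxia element.

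Tfrc: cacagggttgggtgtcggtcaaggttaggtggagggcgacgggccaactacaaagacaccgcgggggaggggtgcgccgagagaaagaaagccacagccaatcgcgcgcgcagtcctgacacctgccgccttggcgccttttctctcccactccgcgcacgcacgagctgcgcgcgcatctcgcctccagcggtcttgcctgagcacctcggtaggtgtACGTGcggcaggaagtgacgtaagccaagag

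The window holds 1 match of ACGTG, at 31 to 27 bases before the start, and 1 CCAAT box, at 153 to 149 bases before it. Searched on both strands, ACGTG occurs in 16.6% of 33469 such windows of the assembly and CCAAT in 34.02%. A match is a description of letters and not a site shown to be bound. Among the 7 measured genes 6 were matched to a window, 8 windows in all, and *Hmox1* was not. Of the other windows 1 of *Hmox2* holds ACGTG, on the opposite strand at 11 to 7 bases before its start.

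*Slc11a2* encodes the divalent metal transporter DMT1, which moves iron out of the endosome after receptor uptake. Its probe set of highest signal, AF008439_g_at, gave 304.5, 202 and 304 on the 6-month arrays, 286, 224 and 230.5 on the 18-month arrays and 179, 226 and 237 on the 30-month arrays. The ages overlapped in every pair. The change at 30 months was -0.28 (SE 0.17, interval -0.67 to 0.11, adjusted p = 0.501). The probe set rc_AA892390_s_at was weaker and gave 92.5, 104 and 108 on the 6-month arrays, 75.4, 72.8 and 60.4 on the 18-month arrays and 87.6, 47.3 and 72.0 on the 30-month arrays. All 6 arrays of the older ages lay below those of 6 months here. The log2 change was -0.40 (SE 0.16, interval -0.74 to -0.05) at 18 months and -0.42 (SE 0.16, interval -0.77 to -0.07) at 30 months. The adjusted p was 0.546 and 0.331, so neither passed. After quantile normalization, and also after median centring, both changes were -0.29, with limma's unadjusted p at 0.085 to 0.087. Both probe sets thus had negative changes, of different size, and their log2 signals correlated at only 0.20 over the 9 arrays.

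The remaining *Slc11a2* probe set, AF008439_at, was under the signal filter, with means of 48.8 ± 11.25, 34.2 ± 7.01 and 37.8 ± 9.80 at 6, 18 and 30 months (SD, n = 3). Its ages overlapped in every pair. Fitted without the filter, its changes from 6 months were -0.28 and -0.21 (adjusted p = 0.676 and 0.596).

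*Slc40a1* encodes ferroportin, the exporter of iron from cells, and both of its probe sets were under the signal filter. U76714_at gave 42.7, 37.8 and 64.7 on the 6-month arrays, 10.4, 10.6 and 18.3 on the 18-month arrays and 64.8, 74.4 and 72.5 on the 30-month arrays. The 3 ages did not overlap in any pair: 18 months was lowest and 30 months highest. Means were 48.4 ± 14.3, 13.1 ± 4.50 and 70.6 ± 5.08 (SD, n = 3). The signals at 18 months lay between percentiles 10.8 and 19.05 of their arrays, and those at 30 months between 39.7 and 43.8. Presence calls were not used here, so the signals at 18 months are not shown to be above background, and no ratio of signals is given.

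Fitted without the filter, over 8740 probe sets, the log2 change of U76714_at was -0.82 at 18 months (SE 0.14, adjusted p = 0.150) and 1.19 from 18 to 30 months (SE 0.14, interval 0.87 to 1.51, or 1.83-fold to 2.84-fold of signal + 32, adjusted p = 0.0433). The second of these passed the threshold, 1 of 14 iron probe sets beside 0.0458% of all probe sets in that fit. Against 6 months, 30 months was higher by 0.36 (SE 0.14, adjusted p = 0.391). Limma's F-test over the 3 ages gave an adjusted p of 0.0505. Of all probe sets, 0.95% lay below both other ages at 18 months without overlap, U76714_at among them.

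The call rested on settings and single arrays. It held with an offset of 8 (adjusted p = 0.0308) and after median centring (adjusted p = 0.0397), but not with a larger offset (adjusted p = 0.135) or after quantile normalization (adjusted p = 0.0521). It was also lost with an intensity trend in the variance (adjusted p = 0.124) and with only the arrays of 18 and 30 months (adjusted p = 0.0831). Without replicate 3 of 6 months the adjusted p was 0.0294, and without any one of the other 8 arrays it was 0.0730 to 0.207. The change kept its sign in all of these fits, at 0.49 to 1.92.

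The other ferroportin probe set did not follow this course. U76714_g_at gave 53.8, 95.6 and 90.4 on the 6-month arrays, 41.9, 69.4 and 80.6 on the 18-month arrays and 57.0, 51.5 and 41.8 on the 30-month arrays. Its ages overlapped in every pair, and it was lowest on average at 30 months, where U76714_at was highest. Its change from 18 to 30 months was -0.21 (interval -0.67 to 0.25, adjusted p = 1.00 without the filter). The 2 probe sets of this gene correlated at -0.10 over the 9 arrays, so the array gives no single course for ferroportin.

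The *Slc40a1* upstream window is shown because U76714_at gave the 1 call among the iron probe sets. It lies at chr9:55543461-55543710 of GRCr8 on the minus strand, 250 bases before the RefSeq start, and capitals mark GGGCGG, the GC box bound by SP1, or its reverse complement.

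Slc40a1: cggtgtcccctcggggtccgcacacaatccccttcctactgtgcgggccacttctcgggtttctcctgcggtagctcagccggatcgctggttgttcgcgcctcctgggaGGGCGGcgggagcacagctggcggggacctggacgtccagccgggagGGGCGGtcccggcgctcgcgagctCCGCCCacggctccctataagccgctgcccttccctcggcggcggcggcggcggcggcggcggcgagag

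The window holds 3 GC boxes, 2 on the strand shown, at 140 to 135 and 93 to 88 bases before the start, and 1 on the opposite strand at 69 to 64. GGGCGG occurs on either strand in 30.5% of the 33469 windows. Among the iron genes, windows of *Slc11a2*, *Aco1* and *Hmox2* hold it too. The *Tfrc* window before its start holds no GGGCGG, and the *Slc40a1* window holds no ACGTG. Neither window holds TATAAA, which occurs in 12.9% of all windows.

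*Cp* encodes ceruloplasmin, the copper oxidase that lets exported iron bind to transferrin. Its strongest probe set, L33869_at, gave 113, 127 and 134 on the 6-month arrays, 156, 80.8 and 144 on the 18-month arrays and 139, 119 and 104 on the 30-month arrays. The ages overlapped fully, and 18 months had the widest spread. The change at 30 months was -0.04 (SE 0.19, adjusted p = 0.952), with an interval from 0.725-fold to 1.31-fold of the level at 6 months. At 18 months it was -0.01 (interval -0.44 to 0.41, adjusted p = 0.995). After quantile normalization both changes were positive, at 0.11 and 0.10, so no direction can be given for it.

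The other *Cp* probe sets were under the filter. Y12178_at had means of 59.9 ± 9.55, 81.5 ± 31.7 and 51.1 ± 8.92 at the 3 ages (SD, n = 3), and its ages overlapped in every pair. The third, rc_AA817854_s_at, gave 45.2, 51.5 and 32.3 on the 6-month arrays, 10.0, 23.5 and 42.4 on the 18-month arrays and 9.60, 24.3 and 24.2 on the 30-month arrays. Here 30 months lay below 6 months without overlap, as it did for 15.5% of all 8740 probe sets. Without the filter its change was -0.55 (SE 0.22, adjusted p = 0.397). Liver is the main source of ceruloplasmin in plasma. Of 12 hepatocyte and plasma protein markers measured, 9 were under the filter, albumin among them, and the strongest were *Serpina1* and *Cyp2e1*. Their summed signal was 939.9 to 1114 at 6 months, 529.5 to 1094 at 18 months and 649 to 853 at 30 months. Of the 3 tested, all 3 lay below 6 months at 18 and 30 months, with median changes of -0.32 and -0.47. The median of all tested probe sets was -0.04 and -0.05. By limma's adjusted p 0 of the 3 passed at 18 or 30 months, with 1 and 0 at an unadjusted p under 0.05. Their part in the *Cp* values was not tested.

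*Hmox1* encodes the inducible haem oxygenase, which opens the haem ring and frees its iron. The probe set rc_AI179610_at gave 509, 393 and 305 on the 6-month arrays, 328, 209 and 241 on the 18-month arrays and 462, 286 and 227 on the 30-month arrays. Means were 402 ± 102, 259 ± 61.7 and 325 ± 122 (SD, n = 3), lowest at 18 months, and the ages overlapped in every pair. The change at 18 months was -0.57 (SE 0.26, interval -1.15 to 0.02, adjusted p = 0.581), and at 30 months -0.31 (interval -0.90 to 0.27, adjusted p = 0.625). Leaving out 1 array moved the latter to as low as -0.57, when the first 30-month array was dropped, and as high as -0.11, when the third was. The array labelled replicate 1 was the highest of its age at each of the 3 ages. The second probe set, J02722cds_at, had means of 92.6 ± 19.2, 95.9 ± 28.5 and 80.0 ± 12.6 (SD, n = 3). Its change at 18 months was 0.02 and at 30 months -0.15 (adjusted p = 0.983 and 0.756). The lower reading at 18 months was therefore seen in only 1 of the 2 probe sets.

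Macrophages that clear red cells are rich in haem oxygenase and ferroportin. The macrophage markers, with 6 of 8 measured genes above the filter and *Csf1r* and *Itgam* below it, summed to 1711 to 1973 at 6 months, 1463 to 1815 at 18 months and 1801 to 2209 at 30 months. The list was led by *Lyz2* and *C1qb*, and 0 of 6 passed the limma threshold at 18 or 30 months, with 0 and 2 at an unadjusted p under 0.05. From 18 to 30 months, where U76714_at was called, 0 of 6 passed and 2 had an unadjusted p under 0.05. Of these 6 genes 3 rose and 3 fell, with a median change of 0.14, and *Lyz2* had 0.52 (SE 0.20, adjusted p = 0.999). At 18 months, too, 3 lay above 6 months and 3 below. At 30 months 5 lay above 6 months and 1 below. The median change there was 0.21, beside -0.05 over all tested probe sets. The summed signals at 6 and 18 months overlapped, as did those at 18 and 30 months, with the lowest array at 18 months. The means of rc_AI179610_at and of U76714_at were also lowest at 18 months. By contrast, the mean of *Hmox1* J02722cds_at was highest at 18 months and that of *Slc40a1* U76714_g_at was lowest at 30 months. The part of macrophages in these values was not tested.

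*Hmox2* encodes the constitutive haem oxygenase. Its strongest probe set, U05013_at, gave 584.5, 564 and 522 on the 6-month arrays, 634, 449.6 and 479 on the 18-month arrays and 539.6, 580.4 and 513 on the 30-month arrays. The ages overlapped in every pair. The change at 30 months was -0.03 (SE 0.14), with an interval from 0.789-fold to 1.21-fold (adjusted p = 0.947). The other probe set, J05405mRNA_s_at, gave 189.5, 398 and 389 on the 6-month arrays, 195, 462 and 498 on the 18-month arrays and 371, 456 and 345 on the 30-month arrays. Replicate 1 was low at both 6 and 18 months, and the ages overlapped. Its intervals were the widest among the iron probe sets, from -0.47 to 1.06 at 30 months. Over the 9 arrays the 2 probe sets of *Hmox2* correlated at -0.70, so they disagree on which arrays are high.

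*Aco1* encodes iron regulatory protein 1, the cytosolic aconitase that becomes an RNA-binding protein when it loses its iron-sulphur cluster. Its probe set rc_AI176621_at gave 711.5, 666 and 694 on the 6-month arrays, 802.5, 705 and 604 on the 18-month arrays and 704, 696 and 659 on the 30-month arrays. The ages overlapped, and 18 months again had the widest spread. The change was 0.02 at 18 months (SE 0.12, adjusted p = 0.974) and -0.01 at 30 months (SE 0.12, adjusted p = 0.985). Its interval at 30 months, from 0.823-fold to 1.20-fold, was the narrowest among the iron probe sets.

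**Figure D2:**
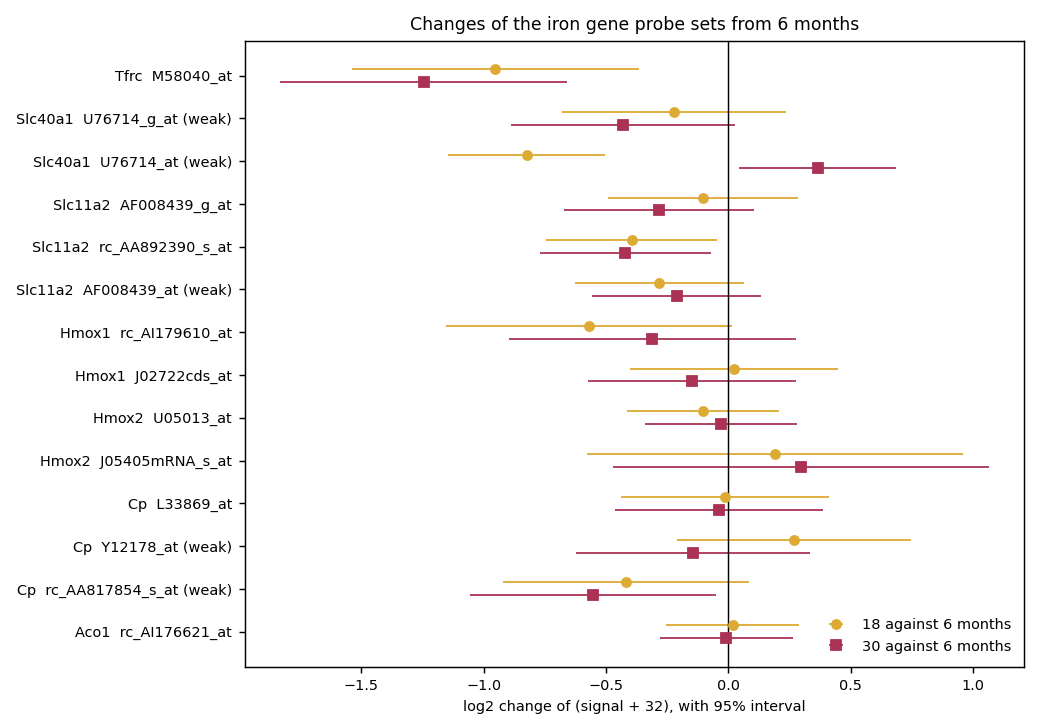
Log2 change of (signal + 32) from 6 months (horizontal axis) for each iron gene probe set (vertical axis), at 18 months (circles) and 30 months (squares), with limma's 95% interval from 9 arrays as the line. Intervals of the probe sets marked "weak" come from the fit without the signal filter. *Tfrc* has the largest negative changes, -0.95 and -1.25, and *Aco1*, *Hmox2* U05013_at and *Cp* L33869_at lie near 0.

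At 30 months the representative probe sets of the 6 tested genes had changes from -1.25 for *Tfrc* to -0.01 for *Aco1*, with a median of -0.16. In order of mean signal, *Tfrc* ran from 6 months down to 18 and 30 months, where the order of 18 and 30 months was within their spread. For *Slc11a2* AF008439_g_at, *Hmox1*, *Hmox2*, *Cp* and *Aco1*, neighbouring ages in the order overlapped.

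Some other genes followed the iron genes closely over the 9 arrays. The 3 most like *Tfrc*, among 3163 genes with a tested probe set, were *Masp1* (Pearson's r = 0.92), *Ppat* (0.91) and *Adap1* (0.89). *Masp1* encodes a protease of the complement lectin pathway and *Ppat* the first enzyme of purine synthesis. For *Hmox1* rc_AI179610_at they were *Cyp2a2* (0.93), *Lgals3* (0.92) and *Tspo* (0.91). For *Slc11a2* AF008439_g_at they were *Tmed2* (0.90), *Nrbp1* (0.88) and *Ide* (0.87), and for *Hmox2* U05013_at *Tln1* (0.95), *Man1a1* (0.88) and *Id3* (0.87). For *Cp* L33869_at they were *Cask* (0.93), *Pom121* (0.92) and *Ctxn1* (0.91), and for *Aco1* *Cxcr1*, *Auh* and *Cmss1* (0.92 each). These are the highest of many correlations over the same 9 arrays and are given as descriptions.

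Further genes of iron handling were read from a separate list. Of 35 listed, 12 were on the array and 9 tested, and 0 of 9 rose or fell past the limma threshold in any pair of ages. Unadjusted p was under 0.05 for 0 genes at 18 months, 1 at 30 months and 1 between 18 and 30 months. The median change at 30 months was -0.105 over the list, beside -0.05 over all tested probe sets. *Cybrd1*, an iron reductase of the cell surface, had means of 124 ± 39.4, 101 ± 36.2 and 61.3 ± 30.0 in order of age (SD, n = 3), and its change at 30 months was -0.77 (SE 0.29, adjusted p = 0.334), or -0.48 without replicate 2 of 30 months. *Hfe*, whose protein binds the transferrin receptor, read 109 ± 17.5, 130 ± 8.85 and 98.2 ± 6.86 (SD, n = 3). Its change from 18 to 30 months was -0.31 (SE 0.12, adjusted p = 0.999).

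Haem synthesis and breakdown had 6 tested genes of 12 listed, with 0 past the threshold in either direction in any pair of ages and 0, 1 and 0 at an unadjusted p under 0.05 for 18 against 6, 30 against 6 and 30 against 18 months. The median at 30 months was 0.09, and 4 of 6 lay above 0. *Urod*, an enzyme of the middle of haem synthesis, fell short of the threshold, with means of 1190 ± 72.8 and 969 ± 113 at 6 and 30 months (SD, n = 3; -0.29 on the log2 scale, SE 0.12, adjusted p = 0.364). *Alas2*, the red cell form of the first enzyme, read 439, 553 and 467 on average at the 3 ages (0.09 at 30 months, adjusted p = 0.870). *Alas2* also belongs to the red cell markers, which had 4 of 5 measured genes above the filter and *Epor* below it. Led by the globin genes *Hbb* and *Hbb-b1*, they summed to 16375 to 20378 at 6 months, 19904 to 21971 at 18 months and 20213 to 26584 at 30 months, and 0 of 4 passed (2 at an unadjusted p under 0.05 at 30 months).

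Lists of pathways that share targets with the iron genes were also read. The hypoxia response list, whose factor HIF-1 acts on *Tfrc*, *Hmox1* and *Cp*, had 15 tested genes of 21 listed and 0 past the threshold in any pair of ages. At 30 months 9 of 15 lay above 6 months and 6 below, with a median of 0.10, and 2 had an unadjusted p under 0.05. *Tfrc* lay at -1.25, and the part of hypoxia in its values was not tested. *Nos2*, the inducible nitric oxide synthase, read 304.5 ± 27.5, 251 ± 33.5 and 205 ± 5.06 at the 3 ages (SD, n = 3; -0.50 at 30 months, SE 0.12, adjusted p = 0.197), and *Arnt*, the partner of HIF-1α, had -0.28 (adjusted p = 0.455). The NRF2 list, whose factor induces *Hmox1*, had 11 tested genes of 20 listed and 0 past the threshold in any pair of ages, with a median of -0.03 at 30 months and 1 gene at an unadjusted p under 0.05. Its factor *Nfe2l2* itself had -0.32 (SE 0.13, adjusted p = 0.353) and *Prdx1*, a peroxiredoxin, -0.32 (SE 0.15, adjusted p = 0.397).

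Dividing cells carry much transferrin receptor, and so a proliferation list was read beside *Tfrc*. It had 9 tested genes of 17 listed, and 0 passed in any pair of ages, with 0 at an unadjusted p under 0.05 in each. Its median at 30 months was -0.10, with 6 of 9 below 6 months. *Odc1*, the first enzyme of polyamine synthesis, had -0.24 (SE 0.17, adjusted p = 0.556), and *Pcna*, the replication clamp, 0.12 (SE 0.12, adjusted p = 0.684). The Schwann cell list had all 9 of 9 measured markers above the filter, led by *Pmp22* and *Ngfr*. They summed to 4677 to 5630 at 6 months, 4254 to 4945 at 18 months and 4392 to 4864 at 30 months. Endothelial markers, 4 of 7 above the filter and led by *Pecam1* and *Flt1*, summed to 1329 to 1804, 1415 to 1625 and 1326 to 1488. In both lists 0 genes passed at 18 or 30 months, with 2 and 2 of 9 Schwann cell genes and 0 and 0 of 4 endothelial genes at an unadjusted p under 0.05.

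**Figure D3:**
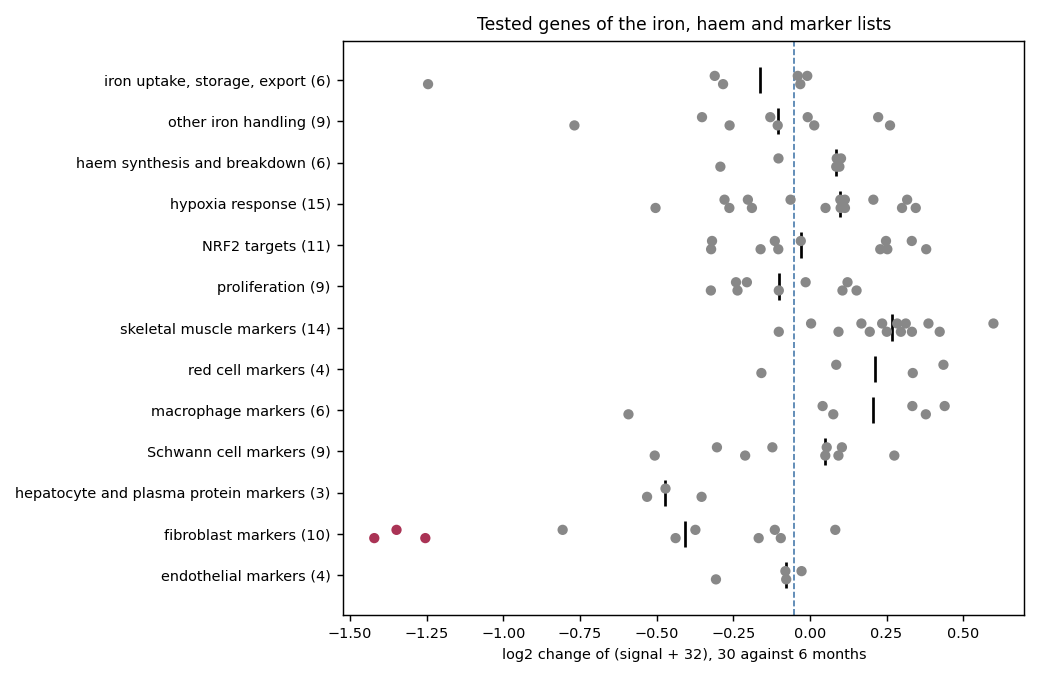
Log2 change of (signal + 32) at 30 against 6 months (horizontal axis) for each tested gene of the lists (vertical axis, number of tested genes in brackets), by its probe set of highest mean signal. Each point is 1 gene, red where it passed an adjusted p of 0.05, black bars are list medians, and the dashed line is the median of all tested probe sets, -0.05. *Tfrc* is the lowest of the 6 iron genes, and the 3 red points are fibroblast collagens.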

How the data were processed

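Each of 9 Affymetrix Rat Genome U34 arrays carried RNA of 4 pooled animals, 3 arrays per age. The deposited values are signal intensities that the authors computed with MAS5, per the submitters' processing notes, on a linear scale as the values show. The label field names a pair of dyes, but the staining described has 1 channel, which was assumed. The authors' presence and difference calls were not used here; their limit of a 1.7-fold average change was applied to signals.

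Controls (59 of 8799 probe sets) were left out. Age means were estimated from log2(signal + 32) of the 9 arrays together by limma's lmFit and eBayes (limma 3.58.1, R 4.3.3), with 6 residual and 3.69 prior degrees of freedom. It covered the 5244 probe sets in the upper 60% by mean, a cutoff of 6.60 or a signal of about 65.0, and p-values were adjusted by Benjamini and Hochberg over these. Weaker iron probe sets were fitted with all 8740. Intervals are limma's 95% intervals. An exact permutation test of 3 against 3 arrays was not used, since it has too few arrangements for the threshold. The code was tested on simulated data.

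Gene symbols are the platform's: 7006 probe sets carry 1, 308 several and 1426 none, and 6985 gene IDs matched the GRCr8 table with 0 symbols changed. Genes and lists were chosen with earlier results of these data known. All probe sets of a gene are given. A gene is represented in lists by the one of highest mean. Likeness names the 3 genes of highest Pearson's r per member. From a pathway list, genes that passed are named, and where none did the 2 of lowest F-test p, and from a marker list the 2 of highest signal; collagens, albumin and markers under the filter were named after their values were seen. A planned comparison of *Tfrc* with *Fth1* was not made, since no probe set of *Fth1* alone was given. Alternatives were the offset (8 or a larger one), filter, scaling, replicate block, pairs of ages, variance trend and leaving out each array.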

Additional observations from a re-analysis of the deposited data

How the results depend on the processing

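The count of iron probe sets past the threshold was 0 of 9 in each pair of ages under the offsets, scalings, block, trend, pairs of ages and fits without 1 array that were run. The upper 40% held only 5 of the 9, *Tfrc* not among them, and 0 of these passed. Without filtering, 0 of 14 passed against 6 months and 1 between 30 and 18 months (*Slc40a1* U76714_at). Over all tested probe sets, 4 passed at 18 months, 17 at 30 months and 1 between 30 and 18 months. At 18 months the count was 8 with the larger offset, 7 after median centring, 8 with an intensity trend, 0 with the pair of ages only and 75 by the fold rule on signals. At 30 months it was 117 by the fold rule. Between 30 and 18 months it was 0 with the larger offset, with the upper 40%, with a trend and with the pair of ages only, 4 without filtering and 33 by the fold rule. Without 1 array the counts ran from 0 to 5, 0 to 20 and 0 to 1; the second 6-month array was one whose absence left 0 in all 3 comparisons. At 18 months the count was also 0 when the third 18-month array was dropped, and 2 when either the first 6-month or the second 18-month array was. For 30 against 6 months, dropping the second or the third 30-month array left 0, dropping the first left 10, and dropping the first or the third 6-month array left 3 or 2. Between 30 and 18 months, the count was 0 after dropping the first 6-month, the third 18-month or the second 30-month array. With replicate number as a block they were 6, 11 and 0. Arrays of the same number deviated together in part, with correlations of -0.02 to 0.26, 4 of 9 over 0.1. Arrays of different numbers had -0.21 to 0.15, 2 of 18 over 0.1. Of the 9 arrays 8 were closest to their own number. The numbers are labelled only as replicates, and the main fit did not take them as pairs. With the block the *Slc40a1* call was lost (adjusted p = 0.266), and it changed no other call of an iron probe set. *Hmox1* rc_AI179610_at at 18 months had an adjusted p of 0.418 with it, and 3 of 9 iron probe sets there an unadjusted p under 0.05, against 2 without it. Median centring moved the median change of all tested probe sets from -0.04 to 0.06 at 18 months and from -0.05 to 0.08 at 30 months. The change of *Tfrc* kept its sign. The fits of weak probe sets under other settings and the likeness under other settings were chosen after seeing the data. The planned *Tfrc* and *Fth1* difference and its alternatives were not run.

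Of 714 alternative values over 42 changes of iron probe sets, 660 kept direction and call, 13 lost the call of U76714_at between 30 and 18 months, and 41 turned sign, 31 of them without 1 array. The turned changes were at most 0.30 in size, and none had passed. After quantile normalization they were 0.0029 for *Slc11a2* rc_AA892390_s_at between 30 and 18 months, and at 30 months 0.0055 for *Hmox2* U05013_at, 0.10 for *Cp* L33869_at and 0.0098 for *Aco1*. At 18 months *Cp* L33869_at was 0.11 after quantile normalization, 0.0909 after median centring and 0.0008 with the larger offset. After median centring at 30 months *Hmox2* U05013_at was 0.10, *Cp* L33869_at 0.0886 and *Aco1* 0.12. *Hfe* turned at 30 months to 0.0285 by quantile normalization and to 0.0230 by median centring. Leaving out 1 array at 18 months, the changes that turned ran from -0.12 to 0.21 for *Hmox1* J02722cds_at, -0.12 to 0.58 for *Hmox2* J05405mRNA_s_at, -0.15 to 0.22 for *Cp* L33869_at and -0.0772 to 0.12 for *Aco1* rc_AI176621_at. Leaving out 1 array at 30 months against 6 months, the changes that turned ran from -0.0760 to 0.0081 for *Hmox2* U05013_at, -0.0180 to 0.46 for *Hmox2* J05405mRNA_s_at, -0.12 to 0.0394 for *Cp* L33869_at and -0.0335 to 0.0194 for *Aco1* rc_AI176621_at. Leaving out 1 array between 30 and 18 months, the changes that turned ran from -0.16 to 0.14 for *Slc11a2* rc_AA892390_s_at, -0.0334 to 0.17 for *Slc11a2* AF008439_at, -0.0022 to 0.46 for *Hmox1* rc_AI179610_at, -0.0182 to 0.22 for *Hmox2* U05013_at, -0.28 to 0.33 for *Hmox2* J05405mRNA_s_at, -0.26 to 0.11 for *Cp* L33869_at, -0.34 to 0.0753 for *Cp* rc_AA817854_s_at and -0.13 to 0.0686 for *Aco1* rc_AI176621_at. The causes were not tested.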

Other observations

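The genes of the rule without a probe set of their own appear on 6 probe sets annotated to 2 to 9 symbols each, whose signal cannot be assigned to one gene. The strongest, rc_AI169802_at, lists a ferritin heavy chain gene and a pseudogene and read 8514 ± 507, 8353 ± 467 and 7723 ± 168 at 6, 18 and 30 months (SD, n = 3). Several copies of the ferritin light chain gene are listed on rc_AI231807_at, which read 3447 ± 572, 3073 ± 738 and 3358 ± 119, and on rc_AI231807_g_at, which read 1211 ± 108, 1426 ± 88.0 and 1461 ± 113. The transferrin gene shares D38380_g_at with *Srprb*, and that probe set read 421 ± 62.5, 350.1 ± 63.1 and 346 ± 46.7. The lowest adjusted p over these 6 probe sets and the 3 pairs of ages was 0.288, for D38380_at, which was under the signal filter and read 38.0, 20.9 and 11.7 on average.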
